A study of Homo sapiens with 12 samples.

Results

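The 36 genes described here encode chaperones of the endoplasmic reticulum (ER), the machinery that moves new proteins into it and the machinery that removes misfolded proteins from it. They were chosen by symbol, as unfolded protein response and ER quality control genes. No cut on their values was used, but earlier results of these data were known when the list was made. All 36 were found among the 63036 rows of the deposited expression table. They fall into 5 roles: 11 chaperones and cofactors, 6 enzymes that form or rearrange disulfide bonds, 4 stress sensors and their effector, 10 genes of ER-associated degradation and 5 genes of protein translocation. Messenger RNA was sequenced from HCT116 and HCT15, both established human colorectal carcinoma lines, each as control cells and as cells labelled as overexpressing RNF26, with 3 libraries in each of the 4 groups. RNF26 is an E3 ubiquitin ligase of the ER membrane. The labels give no treatment, time point or further genetic change, and they do not describe the control construct, the vector or whether clones or pools of cells were used. The comparisons ask which mRNAs differ between RNF26 and control cells in each line, whether these differences depend on the line, and how the lines differ as control cells.

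Proteins bound for secretion or for membranes enter the ER through the Sec61 channel, to which the signal recognition particle and its receptor bring the ribosome. Inside, HSPA5 and its cofactors, the lectins calnexin and calreticulin, and the protein disulfide isomerases fold them, and proteins that fail to fold are moved back to the cytosol, tagged with ubiquitin and degraded. When misfolded proteins build up, the sensors ATF6, IRE1 (encoded by ERN1) and PERK (encoded by EIF2AK3) start the unfolded protein response, in which ATF6 and the spliced form of XBP1 raise transcription of many of the genes described here. Both factors act through the ER stress response elements ERSE and ERSE-II.

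These elements were searched in RefSeq promoters (GRCh38.p14, 250 bases before to 50 bases after a gene's start). The genes were chosen as unfolded protein response genes, so a larger share with an element than over all genes is no separate evidence. ERSE was taken as CCAAT, 9 bases of any kind, then CCACG, and ERSE-II as ATTGG, 1 base of any kind, then CCACG, each on either strand. The motifs share the letters CCACG, and no site below was counted under both. Promoters were found for 31 of the 36 genes, with PDIA3, DERL1, DERL3, MARCHF6 and SRPRA not among them. ERSE was present in 8 of these 31 genes (25.8%), against 25 of 27305 genes with a promoter in the table (0.0916%). ERSE-II was present in 3 of 31 (9.68%), against 19 of 27305 (0.0696%). The sequences of 9 genes are shown because the expression values that follow differ among promoters that carry the same element. Each is written 5′ to 3′ on the strand of its gene, with the element's fixed letters in capitals.
CRELD2: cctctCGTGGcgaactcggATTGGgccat
CALR: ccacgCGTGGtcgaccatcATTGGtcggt
PDIA6: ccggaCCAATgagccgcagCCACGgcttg
HSP90B1: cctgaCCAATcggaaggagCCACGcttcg
XBP1: gctggCCAATcgcggagggCCACGaccgt
HSPA5: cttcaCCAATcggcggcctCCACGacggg
SDF2L1: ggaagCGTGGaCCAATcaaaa
HYOU1: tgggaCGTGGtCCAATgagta
HERPUD1: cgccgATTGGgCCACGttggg
The CRELD2, CALR, SDF2L1 and HYOU1 elements read in reverse orientation to the gene, and the other 5 read forward. They lie at chr22:49918549-49918577 on the plus strand for CRELD2, chr19:12938379-12938407 plus for CALR, chr2:10812848-10812876 minus for PDIA6, chr12:103930211-103930239 plus for HSP90B1 and chr22:28800598-28800626 minus for XBP1. The HSPA5 element is at chr9:125241386-125241414 minus, SDF2L1 at chr22:21642109-21642129 plus, HYOU1 at chr11:119057269-119057289 minus and HERPUD1 at chr16:56932020-56932040 plus. HSP90B1 and HYOU1 each had a further element of the same kind in the window, and CANX and ERO1B also carried an ERSE. A match describes letters only and does not show that a factor binds there.

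Values are TPM, a transcript abundance corrected for transcript length and scaled to the same total in every library. How many reads stand behind a value is unknown. Errors after ± are the SD over the 3 libraries of a group. All transcripts of a library share a fixed total of TPM, so the level of 1 gene also depends on the others. Between 13582 and 14135 genes reached 1 TPM in a library. The 36 genes summed to 4057 to 4179 TPM in HCT116 controls, 3908 to 4257 in HCT116 RNF26 libraries, 4239 to 4871 in HCT15 controls and 3545 to 3830.2 in HCT15 RNF26 libraries. In HCT15 other fractions also differed: cytosolic ribosomal protein genes took 17.6% to 24.3% of TPM in controls and 26.3% to 27.5% in RNF26 libraries, and 10 immediate early genes summed to 211 to 243 against 131 to 149 TPM. Mitochondrial transcripts took 16.4% to 25.9% in HCT15 controls and 18.5% to 19.2% in HCT15 RNF26 libraries, with HCT15 control replicate 3 at the top for mitochondrial and at the bottom for ribosomal protein transcripts. In HCT116 both fractions stayed between 20.2% and 22.5% in every library. All 7 epithelial markers were present (summed 2724 to 5599 TPM), while 5 of 6 fibroblast, 4 of 5 immune and 3 of 3 endothelial markers were under 1 TPM in all libraries, with the highest value 14.6 TPM for CD68, and HBB was at 2.0 TPM in 1 library and at 0 elsewhere. The part of these fractions in the results below was not tested. In bulk RNA, fewer cells of a kind and less RNA per cell cannot be told apart. Whether the replicates came from different cultures is not in the labels, and the p-values then measure no more than the scatter of these 12 libraries, possibly technical.

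RNF26 itself was higher in each overexpressing group. It read 15.6, 18.4 and 16.5 TPM in HCT116 controls and 299, 334 and 255 TPM in HCT116 RNF26 libraries, a ratio of means of 17.6. In HCT15 the corresponding values were 26.7, 27.8 and 26.4 and 53.5, 54.6 and 54.4 TPM, a ratio of 2.01. No library of one arm overlapped the other in either line, and the exact permutation test (two-sided) gave p = 0.1 for each, which is as small as 3 libraries against 3 can give.

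In HCT15, mRNAs of several folding genes were lower in RNF26 cells than in control cells. DNAJC3 was the only folding gene of the list called as higher on the TPM scale. CRELD2, CALR and PDIA4 were at 0.411, 0.474 and 0.480 times their control level, while the co-chaperone gene DNAJC3 was at 1.39 times and the degradation genes DERL2 and SELENOS at 1.31 and 1.26 times. Of the 35 genes tested (DERL3 was at 0 to 0.220 TPM and did not pass the filter of 1 TPM in 3 libraries), 3 rose, 17 fell and 15 were not called (limma, Benjamini-Hochberg adjusted p under 0.05). Over all 15584 genes tested, 5.39% rose and 31.2% fell. The median log2 fold change was -0.18 for the 35 genes and -0.17 for all genes. The groups did not overlap, with all RNF26 libraries above all controls, for 5 genes and the reverse held for 17, against 7.23% and 35.9% of all genes. Without HCT15 control replicate 3, the library with the high mitochondrial share, 1 gene rose and 17 fell, against 653 and 4485 of 15584 genes. The counts also depended on the TPM scale. When libraries were rescaled by median ratios, which moved the median of all genes from -0.17 to 0, 12 of the 35 genes rose and 10 fell, against 14.4% and 16.7% of all genes. The 35 genes therefore divided differently by direction on each scale, and where a gene's call differs between the scales both are given below. Under the TPM scale and all 4 other scalings (median ratio, quantile, removal of mitochondrial and ribosomal protein genes, and correction for GC content and transcript length), the same 10 genes fell: CALR, CRELD2, ERN1, P4HB, PDIA3, PDIA4, PDIA6, SEC61A1, SRP68 and SYVN1. The same 3, DERL2, DNAJC3 and SELENOS, rose under all 5.

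**Figure D1:**
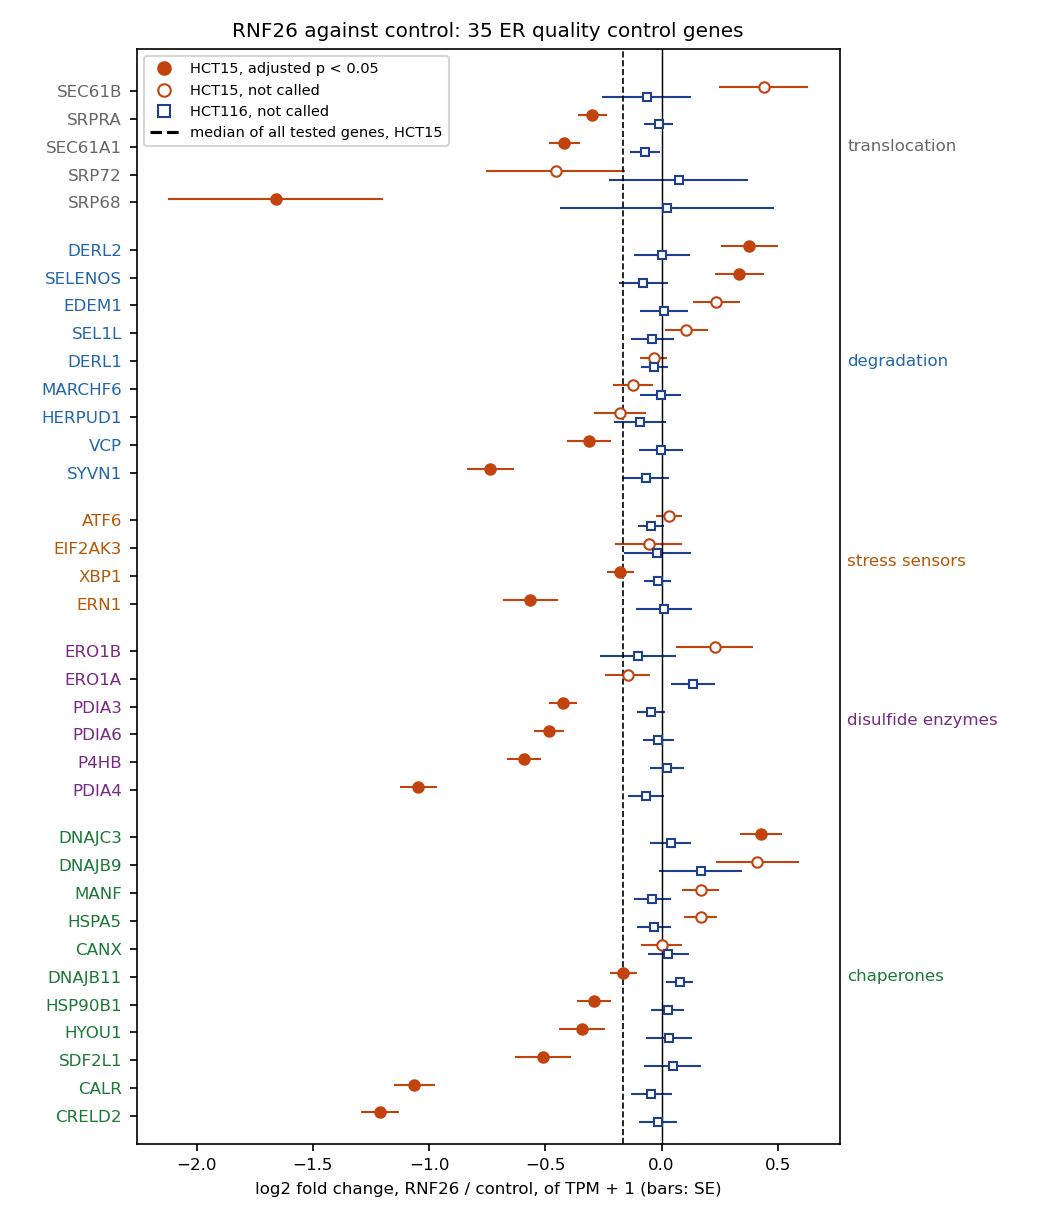
Log2 fold change of RNF26 over control (TPM + 1, x axis) of the 35 tested genes by role in HCT15 (circles) and HCT116 (squares), with SE bars, filled where the adjusted p was under 0.05. HCT15 values spread from -1.66 to 0.44 around the dashed median of all genes at -0.17, and HCT116 values lie between -0.10 and 0.17.

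Among the chaperones and their cofactors, 6 of 11 fell in HCT15 and 1 rose, where 31.2% and 5.39% of all genes did. The balance depended on the scale. After median-ratio scaling 4 were higher and 2 lower (14.4% and 16.7% of all genes). After the GC and length correction 3 were higher and 3 lower (11.9% and 16.2% of all genes). CRELD2, an ER-resident protein with disulfide isomerase activity that is induced by ER stress, read 27.0, 26.1 and 25.6 TPM in controls and 10.7, 11.5 and 10.2 TPM in RNF26 libraries. It fell by 1.21 on the log2 scale (SE 0.0807, adjusted p = 2.30e-05). CALR encodes calreticulin, the soluble lectin that binds calcium and newly made glycoproteins, and read 429.6, 329.5 and 397 TPM against 179.7, 186 and 182 TPM. The RNF26 libraries were tightly grouped and far below the lowest control, a fall of 1.06 (SE 0.0871, adjusted p = 3.66e-05). CANX, its membrane-bound counterpart calnexin, averaged 436 ± 57.2 TPM in controls and 434 ± 30.9 TPM in RNF26 libraries (SD, n = 3 each), with overlapping libraries and a log2 fold change of 0.0004 (adjusted p = 1.0). The difference between the 2 lectins was not tested. CRELD2 (chromosome 22, 49918167 to 49927540, plus strand) overlaps ALG12 on the opposite strand, and CALR lies on chromosome 19, 12938578 to 12944489, plus strand (GRCh38, GENCODE release 29), with an antisense gene across it. Strand use in the quantification is not given here, and reads of such partners cannot be told apart.

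HSP90B1, the ER form of HSP90 that folds receptors and integrins, read 691, 646 and 758 TPM in controls and 547, 616 and 548 TPM in RNF26 libraries. It fell by 0.29 (SE 0.0717, adjusted p = 0.00881), but it was not called after median-ratio scaling (-0.07, adjusted p = 0.464) or in a fit of HCT15 alone (adjusted p = 0.0662). The HSP90B1 call also ended after quantile normalization (-0.31, adjusted p = 0.078) and without mitochondrial and ribosomal protein genes (-0.17, adjusted p = 0.101). SDF2L1, a stress-induced partner of the J-domain cofactors of HSPA5, read 24.3, 26.9 and 19.1 TPM against 17.3, 13.7 and 17.3 TPM. It fell by 0.51 (SE 0.121, adjusted p = 0.00712) and was not called after median-ratio scaling (-0.30, adjusted p = 0.0902) or after the correction for GC content and length (-0.12, adjusted p = 0.411), nor in a fit of HCT15 alone (adjusted p = 0.0658). HYOU1, a large HSP70-like exchange factor for HSPA5, went from 58.6 ± 7.62 to 45.9 ± 3.38 TPM (SD, n = 3 each) and fell by 0.34 (SE 0.0989, adjusted p = 0.0195). Its call ended without control replicate 1 (adjusted p = 0.0789), without RNF26 replicate 1 (adjusted p = 0.081), in a fit of HCT15 alone (adjusted p = 0.0798) and under all 4 other scalings, from -0.23 (adjusted p = 0.0849) without mitochondrial and ribosomal protein genes to -0.06 (adjusted p = 0.619) after the GC and length correction. DNAJB11, a J-domain cofactor of HSPA5, went from 58.8 ± 0.686 to 52.5 ± 3.72 TPM and fell by 0.16 (SE 0.0586, adjusted p = 0.0479) on the TPM scale, with the sign turned and no call after median-ratio scaling (0.05, adjusted p = 0.492). The DNAJB11 call also ended without control replicate 1 (adjusted p = 0.116), 2 (0.0609) or 3 (0.0737), without RNF26 replicate 1 (0.119) or 3 (0.175), and without any 1 of the HCT116 libraries, which share the fit.

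DNAJC3, which encodes the J-domain protein p58IPK and is best known as an inhibitor of PERK, moved the other way. It read 9.54, 10.3 and 9.72 TPM in controls and 13.1, 15.3 and 12.6 TPM in RNF26 libraries, with every RNF26 library above every control. The rise was 0.43 on the log2 scale (SE 0.0892, adjusted p = 0.00344), and DNAJC3 (chromosome 13, 95677139 to 95794989, plus strand) was the 1 rising gene of the 35 that was called in all 24 settings run. HSPA5, the central HSP70 chaperone of the ER and the usual readout of the unfolded protein response, read 296, 282 and 268 TPM in controls and 309.5, 341 and 302 TPM in RNF26 libraries. These groups did not overlap, but HSPA5 was not called on the TPM scale (0.17, SE 0.0715, adjusted p = 0.0894), and was called as higher after median-ratio scaling (0.39, adjusted p = 0.000494) and after the correction for GC content and length (0.37, adjusted p = 0.00202). MANF, a secreted stress-induced factor, had overlapping groups, with 88.3 ± 6.43 and 99.4 ± 8.70 TPM and a log2 fold change of 0.17 (adjusted p = 0.121). It was called as higher after median-ratio scaling (0.39, adjusted p = 0.00374) and without RNF26 replicate 1 (0.24, adjusted p = 0.0414). DNAJB9, a J-domain protein that aids degradation, read 31.5, 17.0 and 29.5 TPM in controls, 1 of which was far below the others, and 32.8, 36.9 and 31.8 TPM in RNF26 libraries (log2 fold change 0.41, SE 0.178, adjusted p = 0.0944). Without that control, replicate 2, its value was 0.14 (adjusted p = 0.226), and without control replicate 1 it was 0.57 and called (adjusted p = 0.036), as it was after median-ratio scaling (0.62, adjusted p = 0.0213).

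**Figure D2:**
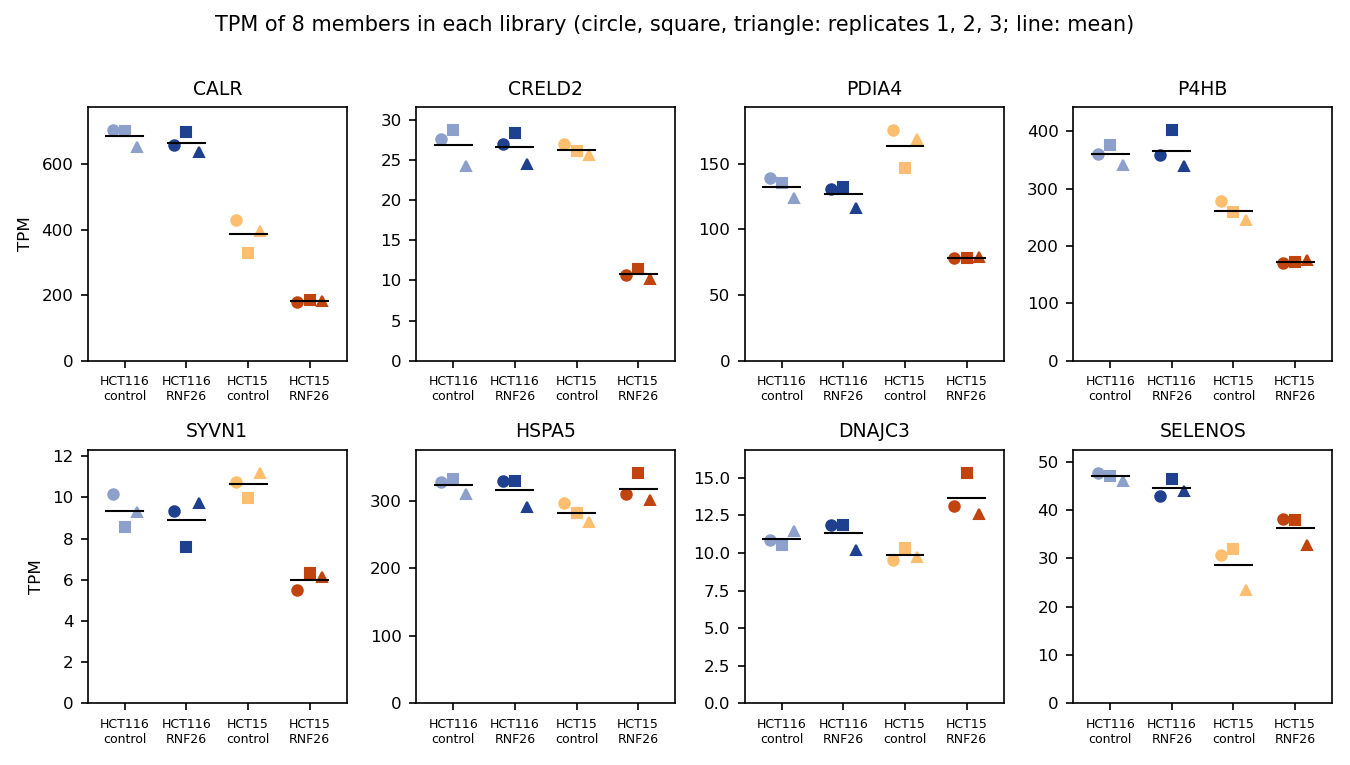
TPM (y axis, from 0) in each library of the 4 groups for 8 genes, with the replicate number as the marker shape and the group mean as a line. In HCT15 the RNF26 libraries of CALR, CRELD2, PDIA4, P4HB and SYVN1 lie below every control and those of HSPA5, DNAJC3 and SELENOS above, while in HCT116 the arms overlap in all 8.

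Of the disulfide enzymes 4 of 6 fell and 0 rose (31.2% and 5.39% of all genes), with a median log2 fold change of -0.45, and the same 4 fell under the other scalings. PDIA4, an isomerase with several thioredoxin domains, read 175, 147 and 169 TPM in controls and 78.4, 78.0 and 79.0 TPM in RNF26 libraries. The RNF26 values lay within 1.013-fold of each other, and the fall was 1.05 (SE 0.0789, adjusted p = 2.71e-05). P4HB, the archetypal protein disulfide isomerase, read 279, 258 and 246 TPM against 171, 172 and 175 TPM and fell by 0.59 (SE 0.0728, adjusted p = 0.000174). The fall of P4HB was smaller after the correction for GC content and length (-0.27, adjusted p = 0.00332). PDIA6 read 209.6, 198 and 189 TPM against 142, 149 and 135 TPM and fell by 0.48 (SE 0.0661, adjusted p = 0.000304). PDIA3, which works with calnexin and calreticulin on glycoproteins, read 467, 457 and 454 TPM against 323, 368 and 336 TPM and fell by 0.42 (SE 0.0601, adjusted p = 0.000378). After median-ratio scaling the log2 fold changes of PDIA6 and PDIA3 were -0.26 (adjusted p = 0.00346) and -0.20 (adjusted p = 0.00518). The oxidases that recharge these isomerases were not called. ERO1A read 45.1, 44.9 and 45.8 TPM in controls and 36.9, 48.6 and 37.9 TPM in RNF26 libraries, with RNF26 replicate 2 above all controls and the others below (log2 fold change -0.15, SE 0.0961, adjusted p = 0.27). Without that library ERO1A had a value of -0.27 and was called (adjusted p = 0.0148), and after median-ratio scaling of all libraries its sign turned (0.07, adjusted p = 0.527). ERO1B, the second oxidase, read 14.7, 15.3 and 16.2 TPM against 14.6, 23.5 and 17.6 TPM, again with RNF26 replicate 2 highest (log2 fold change 0.23, SE 0.164, adjusted p = 0.314), and was called as higher after median-ratio scaling (0.44, adjusted p = 0.0424).

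Of the sensors and their effector, ERN1 and XBP1 fell on the TPM scale and ATF6 and EIF2AK3 were not called, while after median-ratio scaling ATF6 was called as higher and ERN1 as lower. ERN1 encodes IRE1, the kinase and RNase that splices XBP1 mRNA, and read 7.01, 7.39 and 7.49 TPM in controls and 4.31, 5.22 and 4.35 TPM in RNF26 libraries. It fell by 0.56 (SE 0.120, adjusted p = 0.00399). XBP1 mRNA, given as a gene total that does not separate spliced from unspliced forms, read 274, 289 and 252 TPM against 238, 239.7 and 242 TPM. Its groups did not overlap and it fell by 0.18 on the TPM scale (SE 0.0574, adjusted p = 0.0317), a value close to the median of all genes, and its sign turned after median-ratio scaling (0.04, adjusted p = 0.608) and after the correction for GC content and length (0.01, adjusted p = 0.897). The XBP1 call also ended without control replicate 1 (adjusted p = 0.0824) or 2 (0.0842) and without RNF26 replicate 1 (0.0885), 2 (0.0595) or 3 (0.0653). ATF6, the membrane-tethered transcription factor, read 43.0, 42.9 and 42.4 TPM against 42.7, 45.8 and 42.8 TPM (log2 fold change 0.03, SE 0.0561, adjusted p = 0.719), and was called as higher after median-ratio scaling (0.25, adjusted p = 0.00482). EIF2AK3, the PERK kinase gene, read 7.19, 7.91 and 11.4 TPM, highest in control replicate 3, against 7.67, 9.19 and 8.15 TPM (log2 fold change -0.06, SE 0.145, adjusted p = 0.818). The sign of EIF2AK3 turned without that control (0.12, adjusted p = 0.436) and after median-ratio scaling (0.14, adjusted p = 0.485).

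Of 9 tested degradation genes, 2 rose and 2 fell on the TPM scale (5.39% and 31.2% of all genes), with a median of -0.03. After median-ratio scaling 5 were higher and 1 lower (14.4% and 16.7% of all genes), with a median of 0.18. SYVN1, the ubiquitin ligase HRD1 at the centre of the main ER degradation complex, read 10.8, 9.99 and 11.2 TPM in controls and 5.51, 6.33 and 6.13 TPM in RNF26 libraries. It fell by 0.74 (SE 0.102, adjusted p = 0.000318) and lies on chromosome 11, 65121780 to 65134533, minus strand, where its annotation overlaps FAU on the same strand and MRPL49 on the opposite strand, so its value is uncertain to that extent. Its partner SEL1L, which holds substrates for SYVN1, averaged 15.0 ± 1.78 and 16.2 ± 1.54 TPM (SD, n = 3 each) with overlapping libraries (log2 fold change 0.11, adjusted p = 0.41), and was called as higher after median-ratio scaling (0.31, adjusted p = 0.02). SELENOS, a selenoprotein that recruits VCP to the complex, read 30.7, 32.0 and 23.5 TPM against 38.1, 38.0 and 32.7 TPM and rose by 0.34 (SE 0.105, adjusted p = 0.0281). DERL2, a rhomboid-like protein of the same complex, read 19.5, 25.9 and 20.8 TPM against 28.3, 33.1 and 25.5 TPM and rose by 0.38 (SE 0.121, adjusted p = 0.0302), although control replicate 2 lay above RNF26 replicate 3. The SELENOS call ended without control replicate 3 (0.20, adjusted p = 0.0654) and without RNF26 replicate 1 (adjusted p = 0.0944) or 2 (0.0804), and the DERL2 call without control replicate 1 (0.112) or 3 (0.0814) and RNF26 replicate 1 (0.0654) or 2 (0.107). In a fit of HCT15 alone neither was called, with adjusted p values of 0.132 for SELENOS and 0.11 for DERL2, nor with no filter on low values (0.0655 and 0.0735).

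VCP, the ATPase that pulls substrates out of the membrane, read 85.9, 88.2 and 68.7 TPM in controls and 64.6, 66.9 and 62.5 TPM in RNF26 libraries. It fell by 0.31 (SE 0.0950, adjusted p = 0.0246) on the TPM scale and was not called after median-ratio scaling (-0.09, adjusted p = 0.421), nor without control replicate 1 (adjusted p = 0.088) or 2 (0.0732) or RNF26 replicate 1 (0.0633) or 3 (0.0744). EDEM1, a lectin that marks glycoproteins for degradation, read 5.78, 7.21 and 6.60 TPM against 7.45, 8.05 and 8.03 TPM. Its RNF26 libraries lay above all controls, and it was called as higher after median-ratio scaling (0.43, adjusted p = 0.0114) but not on the TPM scale (0.24, SE 0.102, adjusted p = 0.0945). HERPUD1, a stress-induced scaffold of the complex, averaged 96.6 ± 13.7 and 84.9 ± 6.79 TPM (log2 fold change -0.18, adjusted p = 0.239). It was -0.29 and called (adjusted p = 0.0495) without control replicate 3, -0.08 (adjusted p = 0.592) without control replicate 2, and 0.04 (adjusted p = 0.805) after median-ratio scaling. DERL1 averaged 24.9 ± 1.07 and 24.3 ± 0.773 TPM (log2 fold change -0.03, adjusted p = 0.709), and it was called as higher after median-ratio scaling (0.18, adjusted p = 0.0176). MARCHF6, a membrane ubiquitin ligase that also degrades sterol synthesis enzymes, averaged 57.0 ± 0.761 and 52.6 ± 6.96 TPM (SD, n = 3 each, log2 fold change -0.12, adjusted p = 0.309). Without RNF26 replicate 2 it was -0.22 and called (adjusted p = 0.0416), without RNF26 replicate 3 it was -0.04 (adjusted p = 0.79), and median-ratio scaling turned its sign (0.09, adjusted p = 0.332).

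Of the translocation genes 3 of 5 fell and 0 rose (31.2% and 5.39% of all genes). After median-ratio scaling 2 were lower and 1 higher (16.7% and 14.4% of all genes). SEC61A1, the pore-forming subunit of the Sec61 channel, read 84.6, 81.0 and 83.5 TPM in controls and 59.0, 65.5 and 61.4 TPM in RNF26 libraries and fell by 0.42 (SE 0.0656, adjusted p = 0.000663). After the GC and length correction its log2 fold change was -0.15 (adjusted p = 0.0258). SRPRA, the subunit of the receptor that docks the signal recognition particle, read 67.6, 65.8 and 64.2 TPM against 52.6, 54.1 and 53.5 TPM and fell by 0.30 (SE 0.0629, adjusted p = 0.00373), with no call after median-ratio scaling (-0.08, adjusted p = 0.236). Both genes varied little within each group.

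SRP68, SRP72 and SEC61B were set apart by their spread among the HCT15 controls. SRP68 and SRP72 encode the pair of large subunits that bind each other in the signal recognition particle. SRP68 read 146, 54.2 and 341 TPM in the 3 controls and 43.1, 44.9 and 42.5 TPM in the RNF26 libraries, and SRP72 read 190.2, 112 and 356 TPM against 135, 134 and 161 TPM. The highest control was 6.30 times the lowest for SRP68 and 3.19 times for SRP72, with replicate 3 highest and replicate 2 lowest for both. SEC61B, the small subunit of the Sec61 channel, ran in the opposite order, 115, 166 and 79.1 TPM in controls against 159, 148 and 162 TPM in RNF26 libraries, a 2.10-fold range. Among the other 32 tested members the widest range in these controls was 1.85-fold (DNAJB9), and in HCT116 controls SRP68, SRP72 and SEC61B kept within 1.07-fold, 1.11-fold and 1.03-fold. Over all tested genes 2.05% had a log2 range in the HCT15 controls as wide as SRP72 or wider. Mitochondrial transcripts moved with this order, at 177311, 164218 and 258645 TPM in control replicates 1, 2 and 3, and their part in the spread was not tested. SRP68 (chromosome 17, 76038775 to 76072653, minus strand, with ZACN on the opposite strand) was called on all scales, with a log2 fold change of -1.66 (SE 0.461, adjusted p = 0.0157). The estimate was -1.02 (adjusted p = 0.0231) without control replicate 3 and -2.34 (adjusted p = 0.000128) without control replicate 2, and the call ended in a fit of HCT15 alone (adjusted p = 0.119) and when low genes were not filtered out (adjusted p = 0.0517). SRP72 was not called (-0.46, SE 0.299, adjusted p = 0.268), and moved from -0.03 (adjusted p = 0.943) without control replicate 3 to -0.86 (adjusted p = 0.00693) without replicate 2. SEC61B was not called either (0.44, SE 0.191, adjusted p = 0.0966), with 0.17 (adjusted p = 0.302) without control replicate 3 and 0.70 (adjusted p = 0.00143) without replicate 2, and it was called as higher after median-ratio scaling (0.66, adjusted p = 0.0252).

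**Figure D3:**
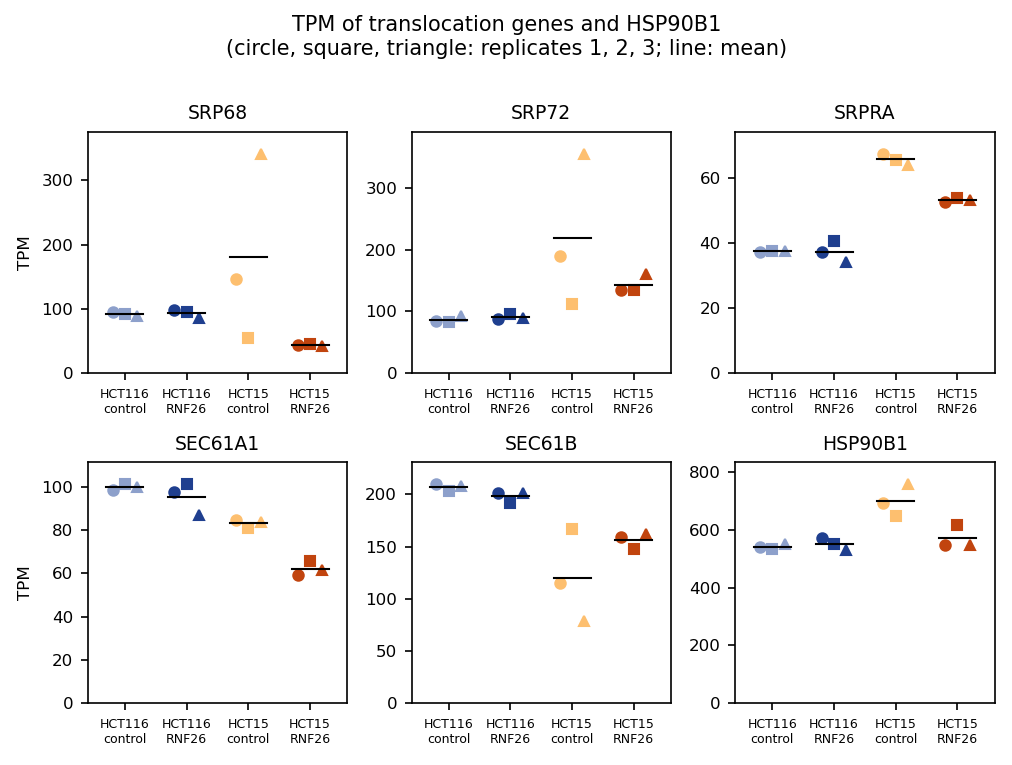
TPM (y axis, from 0) in each library of the 4 groups for the 5 translocation genes and HSP90B1, with the replicate number as the marker shape and the group mean as a line. HCT15 control replicate 3 (triangle) is highest for SRP68 (341 TPM) and SRP72 (356 TPM) and lowest for SEC61B (79.1 TPM), while SRPRA and SEC61A1 have narrow groups.

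Transcript base composition moved with the HCT15 differences. Across the 35 genes, GC content of the annotated transcripts and the log2 fold change in HCT15 had a Pearson correlation of -0.52, against -0.37 across 14849 tested genes with a GC value. These are correlations across genes, which share libraries and are not independent replicates, and no p is given. The falling genes had a median GC content of 51.9% (42.4% to 66.2%, n = 17), the 3 rising genes 44.7% (40.6% to 49.2%) and the 15 genes not called 45.8% (37.0% to 52.0%). After the correction for GC content and length, 6 of the 35 rose and 11 fell, against 11.9% and 16.2% of all genes. CRELD2, CALR and PDIA4 still fell, by 0.83, 0.79 and 0.88 on the log2 scale (adjusted p = 4.44e-05, 0.00016 and 4.44e-05). The part of base composition in any of these changes was not tested. In HCT116 the same correlation was -0.20 across the 35 genes and -0.097 across all genes. For the difference between the control cells of the lines it was -0.46 across the 35 genes and 0.030 across all genes.

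**Figure D4:**
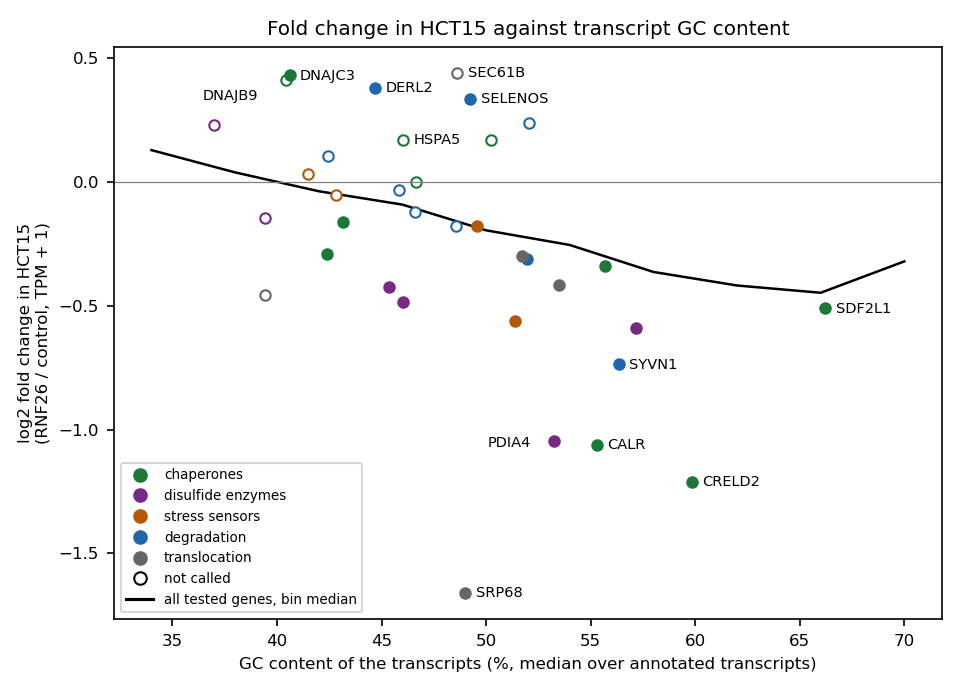
Log2 fold change in HCT15 (RNF26 over control, y axis) against transcript GC content (%, x axis) for the 35 genes, coloured by role and filled where called, with the median of all tested genes per GC bin as a line. CRELD2, CALR, PDIA4 and SYVN1 lie below the line for their GC content, and DNAJC3, DERL2 and SELENOS above it.

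The calls of genes with promoter elements depended on the scale in HCT15. Of the 11 genes with an ERSE or ERSE-II, 0 rose and 7 fell on the TPM scale, against 5.39% higher and 31.2% lower over all tested genes, with log2 fold changes from -1.21 (CRELD2) to 0.23 (ERO1B) and a median of -0.29. The other 24 tested genes include PDIA3, DERL1, MARCHF6 and SRPRA, for which no promoter was found. Of these 24, 3 rose and 10 fell, with a median of -0.13. After median-ratio scaling 2 of the 11 were called as higher, HSPA5 (0.39, adjusted p = 0.000494) and ERO1B (0.44, adjusted p = 0.0424), and 3 as lower, against 10 and 7 of the other 24 and 14.4% and 16.7% of all genes. After the GC and length correction 1 of the 11 was higher and 4 lower, against 5 and 7 of the other 24 and 11.9% and 16.2% of all genes. The medians were then -0.0594 for the 11 and -0.0591 for the other 24. CRELD2, CALR and HSPA5, whose elements are printed above, had log2 fold changes of -1.21, -1.06 and 0.17 on the TPM scale. Genes with the same kind of element thus lay at both ends of the range within this group.

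In HCT116, where RNF26 was raised the most, no member was called. Of the 35 genes 0 rose and 0 fell by limma at an adjusted p under 0.05, and 0 had an unadjusted p under 0.05. All genes gave 0.00642% higher, which is RNF26 itself, and 0% lower. Log2 fold changes ran from -0.10 (ERO1B) to 0.17 (DNAJB9), with a median of -0.01 against 0.01 over all genes. The arms did not overlap for 3 genes, DNAJB9 and DNAJB11 higher and SEC61B lower in RNF26 libraries, where 7.25% of all genes lay wholly higher and 5.56% wholly lower. The smallest p values were those of ERO1A, which read 26.6, 28.0 and 28.7 TPM in controls and 30.3, 33.0 and 28.7 TPM in RNF26 libraries (log2 fold change 0.14, unadjusted p = 0.184), DNAJB11, at 67.6, 70.9 and 66.9 against 72.4, 72.0 and 72.6 TPM (0.08, unadjusted p = 0.211), and SEC61A1, at 98.6, 101 and 99.7 against 97.6, 101 and 86.8 TPM (-0.07, unadjusted p = 0.297).

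The chaperone genes that fell in HCT15 had close values in the arms of HCT116. CRELD2 read 27.6, 28.7 and 24.3 TPM in HCT116 controls and 26.9, 28.3 and 24.5 TPM in RNF26 libraries. CALR read 702, 700.4 and 651 against 657, 699 and 638 TPM, and HSP90B1 read 539, 533 and 551 against 572, 551 and 531 TPM. The arms of all of these overlapped. SDF2L1 read 82.4, 90.1 and 83.5 against 92.0, 91.0 and 81.8 TPM, and DNAJC3, which rose in HCT15, read 10.9, 10.5 and 11.4 against 11.8, 11.9 and 10.2 TPM. The means of HYOU1 were 49.4 and 50.5 TPM, of HSPA5 323 and 317, of CANX 303 and 309, of MANF 128 and 124, and of DNAJB9 6.32 and 7.22. HSPA5, the marker that is usually read for ER stress, had a ratio of means of 0.979 between the HCT116 arms, which overlapped.

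Disulfide enzymes and sensors were as close between the arms of HCT116. PDIA4 read 139, 135 and 124 TPM in controls and 131, 133 and 116.3 TPM in RNF26 libraries, and P4HB 361, 376 and 341 against 358, 401 and 339 TPM. PDIA6 read 129.6, 126 and 118 against 125, 129 and 115.9 TPM, and PDIA3 333, 333 and 340.0 against 333, 336 and 309 TPM. RNF26 replicate 3 was the lowest HCT116 library for each of these 4 isomerases. ERN1 read 1.86, 2.08 and 1.99 against 2.29, 2.29 and 1.49 TPM and XBP1 50.8, 53.0 and 50.8 against 50.7, 52.2 and 49.8 TPM. ATF6 read 26.4, 25.1 and 26.8 against 26.1, 24.7 and 24.9 TPM and EIF2AK3 5.89, 5.86 and 5.19 against 5.37, 6.27 and 5.09 TPM. No sensor had arms that lay apart in HCT116.

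Degradation and translocation genes gave the same picture in HCT116. SYVN1 read 10.2, 8.58 and 9.31 TPM in controls and 9.35, 7.61 and 9.72 TPM in RNF26 libraries, VCP 103, 107 and 102 against 102, 115 and 96.1, and SELENOS 47.7, 47.2 and 46.1 against 42.9, 46.5 and 44.0. DERL2 read 30.9, 31.6 and 29.9 against 31.1, 34.5 and 27.5 TPM and EDEM1 3.20, 2.74 and 3.30 against 3.14, 2.78 and 3.41 TPM. These arms overlapped throughout, as did those of HERPUD1 (means 26.0 and 24.3 TPM), DERL1 (44.7 and 43.8 TPM), ERO1B (2.35 and 2.14 TPM), SEL1L (means 12.9 and 12.5 TPM) and MARCHF6 (37.4 and 37.3 TPM). SRP68, so variable in HCT15 controls, read 95.0, 91.1 and 88.5 against 98.3, 95.3 and 85.8 TPM in HCT116, and SRP72 84.1, 83.4 and 92.3 against 88.3, 96.3 and 88.9 TPM. SEC61B read 209.8, 203 and 208 against 201, 192 and 201 TPM and SRPRA 37.3, 37.8 and 37.8 against 37.3, 40.6 and 34.3 TPM.

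The difference between the lines was tested directly, as the RNF26 effect in HCT15 minus that in HCT116. It was called as lower for 12 of the 35 genes and as higher for 1, DNAJC3, against 18.7% and 1.80% of all genes. The median was -0.24 for the 35 genes and -0.18 for all. The smallest p values were those of CRELD2 (-1.20, SE 0.114, adjusted p = 0.000743), PDIA4 (-0.98, SE 0.112, adjusted p = 0.00125), CALR (-1.02, SE 0.123, adjusted p = 0.00131), P4HB (-0.62, SE 0.103, adjusted p = 0.00354) and PDIA6 (-0.47, SE 0.0934, adjusted p = 0.00699). Calreticulin, CRELD2 and these isomerases are all folding factors of the ER lumen. HSPA5, which also folds proteins there, was not called in this difference (0.20, adjusted p = 0.191). CALR, CRELD2, P4HB and PDIA4 were called in the main setting and in all 22 alternatives run for this contrast. The DNAJC3 call (adjusted p = 0.04999) ended whenever a library other than HCT15 control replicate 2 or HCT15 RNF26 replicate 3 was left out. After median-ratio scaling these 4 were the ones called as lower, and 6 genes were called as higher, ATF6, DERL2, DNAJC3, HSPA5, MANF and SELENOS, against 7.35% lower and 5.99% higher over all genes. The RNF26 level differed between lines too, 17.6-fold in HCT116 and 2.01-fold in HCT15, so line and degree of overexpression cannot be told apart.

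Between the control cells of the lines, XBP1, HERPUD1 and ERO1B were several-fold higher in HCT15 and SDF2L1 was several-fold higher in HCT116. Of the 35 genes 17 were higher in HCT15 controls than in HCT116 controls and 12 were lower, against 43.6% and 26% of all genes, with a median log2 difference of 0.30 against 0.22 over all genes. XBP1 read 50.8, 53.0 and 50.8 TPM in HCT116 and 274, 289 and 252 TPM in HCT15, 5.27 times as high (log2 difference 2.37, SE 0.0574, adjusted p = 2.53e-11). HERPUD1, a target of the unfolded protein response, read 29.1, 25.0 and 24.0 against 98.2, 109 and 82.2 TPM, 3.71 times as high (1.85, SE 0.110, adjusted p = 4.92e-08). ERO1B read 2.54, 2.56 and 1.96 against 14.7, 15.3 and 16.2 TPM, 6.55 times as high (2.29, SE 0.164, adjusted p = 2.26e-07). All 4 sensor genes were higher in HCT15, ERN1 by 1.48, ATF6 by 0.69 and EIF2AK3 by 0.54 on the log2 scale, with adjusted p values of 6.64e-07, 6.39e-07 and 0.00562. EIF2AK3 was not called after quantile normalization. DNAJB9 (6.32 and 26.0 TPM) and EDEM1 (3.08 and 6.53 TPM) were also higher in HCT15, by 1.84 and 0.88 (adjusted p = 2.92e-06 and 1.23e-05). DERL2, SEC61A1 and DNAJB11 were lower in HCT15 (-0.47, -0.26 and -0.22, adjusted p = 0.00441, 0.00374 and 0.00625). DNAJC3 was not called between the lines in the main setting (-0.14, adjusted p = 0.193). It was called as lower in HCT15 in 3 of 23 alternatives, which ranged from -0.46 to -0.10 (lowest adjusted p = 7.9e-05).

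SDF2L1, CALR and MANF ran the other way between the lines. SDF2L1 read 82.4, 90.1 and 83.5 TPM in HCT116 controls and 24.3, 26.9 and 19.1 TPM in HCT15 controls, 3.64 times as high in HCT116 (log2 difference -1.83, SE 0.121, adjusted p = 1.18e-07). DERL1, a rhomboid-like protein of the degradation complex, read 43.6, 46.1 and 44.4 against 25.8, 25.2 and 23.7 TPM (-0.82, SE 0.0580, adjusted p = 2.07e-07). CALR was also lower in HCT15 (-0.84, adjusted p = 5.28e-06), as were SEC61B (-0.84, adjusted p = 0.00208), SELENOS (-0.70, adjusted p = 0.0001) and MANF (-0.53, adjusted p = 0.000102). SRPRA was higher in HCT15, at 37.3, 37.8 and 37.8 against 67.6, 65.8 and 64.2 TPM (0.79, SE 0.0629, adjusted p = 5.40e-07). CRELD2, the gene with the smallest p between the HCT15 arms among the chaperones, averaged 26.9 ± 2.28 TPM in HCT116 controls and 26.2 ± 0.694 TPM in HCT15 controls (SD, n = 3 each) and was not called (-0.03, adjusted p = 0.757). Over 23 alternatives its value between the lines ranged from -0.35 to 0.02, and it was called in 3 (lowest adjusted p = 0.000541). On the length-corrected TPM scale HSP90B1 was the most abundant member in HCT15 controls (mean 698 TPM) and CALR in HCT116 controls (mean 685 TPM).

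**Figure D5:**
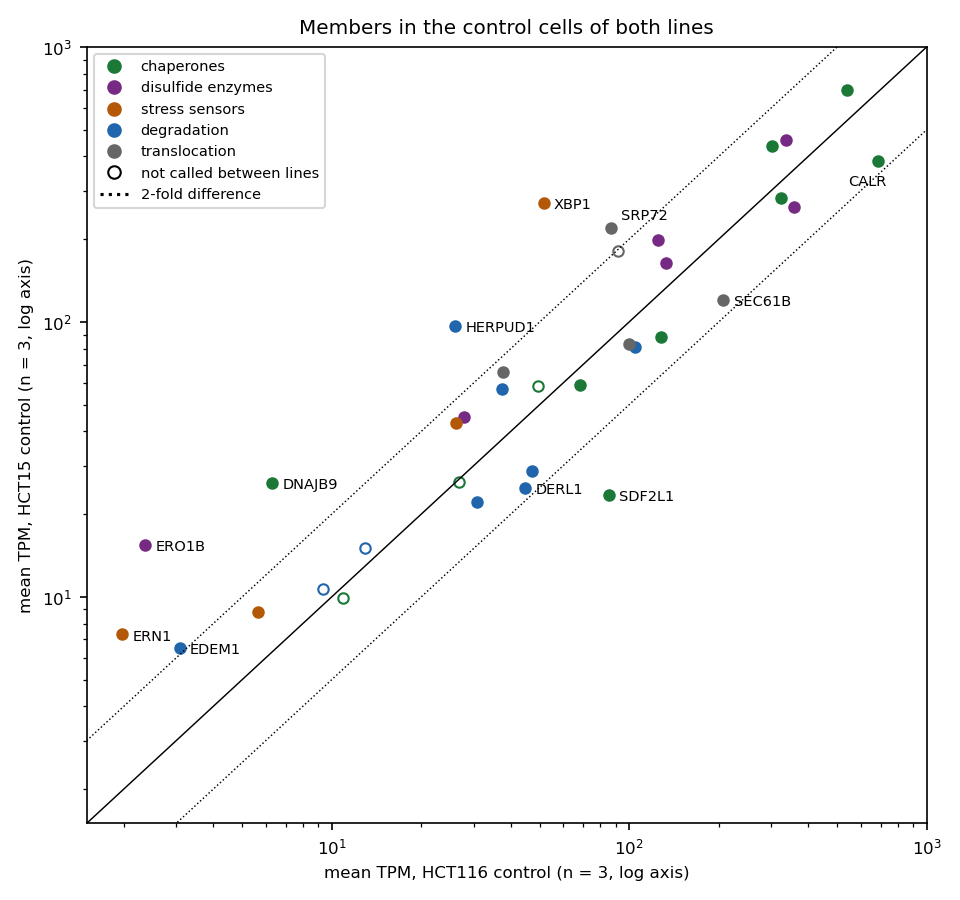
Mean TPM of the 35 genes in HCT116 controls (x axis, log) and HCT15 controls (y axis, log), n = 3 libraries each, coloured by role and filled where the adjusted p between lines was under 0.05. XBP1, HERPUD1, DNAJB9, ERO1B, ERN1, SRP72 and EDEM1 lie above the upper dotted line (2-fold), and SDF2L1 lies below the lower one.

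A further 109 genes of the same pathways, listed by role with earlier results of these data known, placed these results in their surroundings. Of 107 tested (CREB3L1 and TUSC3 were under 1 TPM in every library), 16 rose and 35 fell in HCT15, against 5.39% higher and 31.2% lower over all tested genes, with a median log2 fold change of -0.05. After median-ratio scaling 37 rose and 14 fell, against 14.4% and 16.7% of all genes. The shares that follow are read against the same percentages. The further degradation genes had 0 of 33 higher and 17 lower on the TPM scale, and 7 higher and 4 lower after median-ratio scaling. SGTA, a cochaperone that hands membrane proteins to quality control, fell from 48.9 ± 5.36 to 24.6 ± 1.63 TPM (SD, n = 3 each), by 0.96 on the log2 scale (SE 0.125, adjusted p = 0.00024). TMUB1, a ubiquitin-like membrane protein of the degradation complexes, fell from 42.3 to 25.3 TPM (-0.73, SE 0.0967, adjusted p = 0.00026), and MAN1B1, a mannosidase that trims misfolded glycoproteins, from 16.3 to 10.2 TPM (-0.62, SE 0.0939, adjusted p = 0.000526). Correcting for GC content and length ended the MAN1B1 call (-0.23, with adjusted p = 0.0829).

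Of 17 stress signalling genes outside the 36, 8 fell and 1 rose in HCT15 (31.2% and 5.39% of all genes). SESN2, a stress-induced inhibitor of mTORC1 signalling, fell from 26.1 ± 0.604 to 11.8 ± 0.920 TPM (SD, n = 3 each), by 1.08 (SE 0.0927, adjusted p = 3.83e-05). PPP1R15A, which encodes GADD34 and restores translation after PERK signalling, fell from 169 to 94.9 TPM (-0.83, SE 0.114, adjusted p = 0.00032). MBTPS1, the site-1 protease that activates ATF6, fell from 31.1 to 20.2 TPM (-0.60, SE 0.0757, adjusted p = 0.00019). The immediate early genes, summed above, were also lower in these libraries, and their part in the fall of these stress genes was not tested. After median-ratio scaling the same role had 1 gene higher and 6 lower (14.4% and 16.7% of all genes).

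Translocation and glycosylation genes outside the 36 had 12 of 35 higher and 6 lower in HCT15, and folding genes had 3 of 22 higher and 4 lower (5.39% and 31.2% of all genes). After median-ratio scaling these counts were 18 and 2 for translocation and glycosylation, and 11 and 2 for folding (14.4% and 16.7% of all genes). STT3A, the catalytic subunit of the oligosaccharyltransferase that works at the Sec61 channel, fell from 163 ± 17.4 to 115.7 ± 4.23 TPM (SD, n = 3 each), by 0.49 (SE 0.0741, adjusted p = 0.000546). RPN1, another subunit of that enzyme, fell from 291 to 223 TPM (-0.38, SE 0.0609, adjusted p = 0.000786), with no call after median-ratio scaling (-0.16, adjusted p = 0.0594). CAMLG, a receptor for the insertion of tail-anchored proteins, rose from 31.9 to 47.6 TPM (0.58, SE 0.105, adjusted p = 0.00159). Among folding genes, SERPINH1, the collagen chaperone HSP47, fell from 67.7 to 43.2 TPM (-0.63, SE 0.102, adjusted p = 0.00076), and QSOX1, a sulfhydryl oxidase, from 25.8 to 15.6 TPM (-0.70, SE 0.126, adjusted p = 0.00152). UGGT2, a glycoprotein glucosyltransferase that returns misfolded proteins to the lectins, rose from 22.1 to 30.7 TPM (0.45, SE 0.0880, adjusted p = 0.00248). In HCT116 none of the 107 was called by limma, and 2 had an unadjusted p under 0.05.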

How the data were processed

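The authors deposited 1 table of TPM values, with 1 column per library and no counts. The tools named are fastp, RSEM, StringTie and HISAT2, with build GRCh38, per the submitters' processing notes. No source used here gives their roles or versions, the annotation release or the use of read strand. Per the labels' protocols, poly(A) RNA and a stranded library kit were used. Groups and replicate numbers came from the sample titles. Members were matched by symbol through gene identifiers. Tests used limma 3.58.1 in R 4.3.3 on log2(TPM + 1), which understates the fold change of low genes. The 15584 genes tested reached 1 TPM in 3 or more of the 12 libraries. All 4 groups entered 1 fit with a mean per group (eBayes with trend, 8 residual degrees of freedom, prior 3.09), and p-values were two-sided and Benjamini-Hochberg adjusted over all tested genes, called under 0.05. The fit was tested on simulated data. No pair of libraries was identical (at least 24770 genes differed). GC content and length were medians over the transcripts of GENCODE release 29, with both available for 95.3% of tested genes. Promoter sequences came from RefSeq (GRCh38.p14).

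The members, the lists of further genes and the markers were chosen with earlier results of these data known. Values in each library are given for up to 5 members of each role with the smallest p in HCT15, and for those with the smallest p in HCT116 (3), in the difference between lines (5) and between control lines (6). Of the further genes, up to 3 per role were named by the smallest p in HCT15. Alternatives were a pseudocount of 0.1 or 5, no filter or one of 5 TPM, median-ratio scaling over 7524 genes, quantile normalization, removal of mitochondrial and ribosomal protein genes, a separate fit, robust eBayes, a replicate block, a GC and length correction by splines with 5 degrees of freedom, and leaving out each library. TPM keeps no depth, so no counting interval is given.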

Additional observations from a re-analysis of the deposited data

Results flagged for a closer look

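The RNF26 effect differed between the lines, by the limma test of HCT15 minus HCT116 at an adjusted p under 0.05, for 13 of the 35 tested members, 12 lower and 1 higher, against 18.7% and 1.80% of all genes. The log2 differences were -1.20 for CRELD2, -1.02 for CALR, -0.98 for PDIA4, -0.67 for SYVN1, -0.62 for P4HB, -0.57 for ERN1 and -0.56 for SDF2L1. They were -0.47 for PDIA6, -0.38 for PDIA3, -0.35 for SEC61A1, -0.32 for HSP90B1, -0.29 for SRPRA and 0.39 for DNAJC3. Of 22 alternatives run, CRELD2, CALR, PDIA4 and P4HB were called in 22, PDIA3 and PDIA6 in 21, SYVN1 in 19 and SEC61A1 in 11. SDF2L1 was called in 7, DNAJC3 in 7 (main adjusted p = 0.04999), SRPRA in 6, ERN1 in 5 and HSP90B1 in 5.

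Of the 107 further pathway genes tested, 4 were called as higher and 18 as lower in this difference, against 1.80% and 18.7% of all genes. The 12 named ones were picked by their p in HCT15, which is part of the same difference, so the 10 among them that were called are a description and no separate evidence. Stress and degradation genes gave -1.06 for SESN2, -0.87 for SGTA, -0.79 for PPP1R15A, -0.68 for TMUB1, -0.64 for MAN1B1 and -0.60 for MBTPS1. Folding, glycosylation and insertion genes gave -0.63 for SERPINH1, -0.49 for STT3A, -0.36 for RPN1 and 0.55 for CAMLG.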

How the results depend on the processing

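Of the members, 9 fell and 1 rose in HCT15 in the main setting and all 23 alternatives (CALR, CRELD2, ERN1, P4HB, PDIA3, PDIA4, PDIA6, SEC61A1 and SYVN1, and DNAJC3), and in HCT116 0 were called in any. Against 3 higher in HCT15, the count was 1 with no filter, 12 with median-ratio scaling, 12 with quantile normalization, 8 without mitochondrial and ribosomal protein genes, 1 in a separate fit and 6 after the GC and length correction. Against 17 lower it was 10 with median-ratio scaling, 10 with quantile normalization, 10 in a separate fit and 11 after the GC and length correction. Counts over all genes moved too. Of 15584 genes, 840 higher became 2242 with median-ratio scaling, 2275 with quantile normalization and 374 in a separate fit. The 4857 lower became 2600, 2521 and 3528. After the GC and length correction 1767 were higher and 2406 lower of 14849. Without mitochondrial and ribosomal protein genes 1412 were higher and 3482 lower of 15486. With no filter 687 were higher and 4076 lower of 35454. Leaving out 1 library gave 1 to 4 members higher, with 1 without HCT15 control replicate 3 or HCT15 RNF26 replicate 2, and 13 to 18 lower. Over all 15584 genes it gave 561 to 1171 higher and 3726 to 4843 lower. For the difference between lines, 1 higher became 0 with a pseudocount of 0.1 or 5, no filter or robust eBayes, 6 with median-ratio scaling, 7 with quantile normalization, 3 without mitochondrial and ribosomal protein genes and 4 after the GC and length correction, with 0 to 4 when 1 library was left out, 4 without HCT15 control replicate 2, 1 without HCT15 RNF26 replicate 3 and 0 without any other. The 12 lower became 8 with no filter, 4, 6, 7 and 6 under the same 4 scalings, and 7 to 12 when 1 library was left out, with 7 without HCT116 control replicate 1 or 3, HCT116 RNF26 replicate 1 or 2, HCT15 control replicate 1 or HCT15 RNF26 replicate 1, and 8 without HCT116 control replicate 2. In this difference all 15584 genes gave 281 higher and 2909 lower in the main setting. These became 934 and 1146 with median-ratio scaling and 856 and 1076 with quantile normalization. They became 512 and 1808 of 15486 without mitochondrial and ribosomal protein genes, and 629 and 1013 of 14849 after the GC and length correction. With no filter they were 198 and 1963 of 35454. Leaving out 1 library gave 132 to 636 higher and 1809 to 3221 lower over all genes. Over these alternatives 9 of 35 members had a turned sign in at least 1 in HCT15, 18 in HCT116, 7 in the difference between lines and 4 between control lines. Where the value was called before or after, signs turned in HCT15 for DERL1 (0.18 with median-ratio scaling, 0.22 with quantile normalization), DNAJB11 (0.053 and 0.038) and XBP1 (0.042 with median-ratio scaling, 0.012 after the GC and length correction), in the difference between lines for DERL1 (0.27 and called, quantile), and between control lines for MAN1B1 (-0.24 quantile, -0.26 GC and length) and MBTPS1 (-0.18 quantile). The cause of these moves was not tested.

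With the replicate number as a block (replicate block), 3 members rose and 15 fell in HCT15, and the difference between lines was lower for 7 and higher for 1. Over all 15584 genes 786 rose and 4330 fell in HCT15, and the difference between lines was lower for 2077 and higher for 229. Deviations of same-numbered libraries from their group means correlated by -0.031, -0.042 and -0.025 in HCT116 and 0.009, 0.014 and 0.146 in HCT15. Differently numbered libraries ranged from -0.026 to 0.055 in HCT116 and from -0.124 to 0.113 in HCT15. Whether the numbers pair the libraries is not in the labels and cannot be told from these values.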

Other observations

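Beside the 2 large subunits described above, the signal recognition particle holds 4 smaller proteins and 1 RNA. SRP54, the subunit that binds signal sequences, averaged 58.2 ± 1.61 TPM in HCT15 controls and 56.2 ± 4.59 TPM in HCT15 RNF26 libraries (SD, n = 3 each, log2 fold change -0.05, limma adjusted p = 0.558). SRP9 and SRP14, the subunits that pause translation, had log2 fold changes of -0.02 and -0.02 (adjusted p = 0.929 and 0.84). SRP19 read 42.0, 67.9 and 40.6 TPM against 78.4, 95.7 and 80.5 TPM and rose by 0.78 (SE 0.170, adjusted p = 0.00445), with control replicate 2 above the other controls, as for SEC61B.

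The RNA component, 7SL, was looked at after its values were seen. RN7SL1 read 505, 494 and 514 TPM in HCT116 controls and 688, 685 and 698 TPM in HCT116 RNF26 libraries, with arms far apart but no call (log2 fold change 0.45, limma unadjusted p = 0.00463, adjusted p = 1.0). In HCT15 it read 777, 536 and 705 against 942, 795 and 1053 TPM and rose by 0.47 (SE 0.128, adjusted p = 0.0137). RN7SL2 and RN7SL3 were not called in HCT116, at 0.33 and 0.82 (unadjusted p = 0.0486 and 0.00771), or in HCT15, at 0.19 and 0.30. These copies are nearly identical and carry no poly(A) tail, so their levels in poly(A)-selected libraries are uncertain.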
